A study of Mus musculus with 4 samples.

Results

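Cyp3a11, Cyp3a13, Cyp3a25, Cyp2b10, Cyp2c66 and Abcc2 are 5 cytochrome P450 enzymes and 1 exporter of foreign compounds in the small intestine, 6 of the 32285 genes in the count tables. They were chosen by name, with the level of Cyp3a11 in mutants of both library pairs known, so their levels in mutants and wild types are given as values with no test of their own. Only whether the genotype difference changed along the villus or the intestine was tested. Single-cell RNA sequencing was done on epithelial cells of the small intestine from mice aged 25 weeks, sorted by flow cytometry with CD45, CD31, TER-119, CD326 and DAPI. The 2 mutant libraries carry G5081A, a substitution in the mitochondrial tRNA gene TrnA (alanine), at loads of 77% (mutant 1) and 81% (mutant 2), and the other 2 libraries are wild type. Mutant 1 and wild type 1 form set A, whose titles give no sex, and mutant 2 and wild type 2 form set B, titled male. Separate animals are not stated, and the p-values below come from these 4 libraries alone. In the zone and region fits each library gave several sums. The SE and p-values of those fits therefore do not measure the spread between libraries by itself. Acute colitis appears in the title of the series, whereas the samples' own labels mention no such treatment.

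Cytochrome P450 enzymes of the Cyp3a, Cyp2b and Cyp2c families sit in the endoplasmic reticulum and oxidise drugs, steroids and plant compounds with electrons passed on by the reductase Por. In the gut they act as food is absorbed, and Abcc2 (MRP2) then pumps conjugates back into the lumen across the apical membrane. The nuclear receptors PXR (gene Nr1i2) and CAR (gene Nr1i3), each paired with Rxra, are known to switch on Cyp3a11 and Cyp2b10 in mouse liver and intestine. Enterocytes form at the crypt, move up the villus and are shed at its tip, and their genes also differ from duodenum to ileum.

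In the mm10 annotation the Cyp3a members lie on chromosome 5, with Cyp3a11 (ENSMUSG00000056035) at chr5:145854426-145879964, Cyp3a13 (ENSMUSG00000029727) at chr5:137892932-137921619 and Cyp3a25 (ENSMUSG00000029630) at chr5:145977194-146009618, all on the minus strand. On the plus strands lie Cyp2b10 (ENSMUSG00000030483) at chr7:25897620-25926624, Cyp2c66 (ENSMUSG00000067229) at chr19:39113898-39187072 and Abcc2 (ENSMUSG00000025194) at chr19:43782192-43840740. The bases before the start sites of the Cyp3a members are shown because these genes of one family differed in their place on the villus. The sequences are those of RefSeq (GRCm38.p6), which matched all 6 members, and each gives the 250 bases that end just before the RefSeq start site, read 5′ to 3′ on the strand of the gene. For Cyp3a11, Cyp2b10 and Abcc2 the mm10 annotation above starts the gene further upstream than RefSeq does, so the last part of each of these stretches, CAAAGTCCA of Cyp3a11 included, lies inside the gene as placed above. Capitals mark matches on either strand to AGGTCA or AGTTCA, the receptor words that PXR and CAR dimers bind in pairs, to CAAAGTCCA, a word bound by HNF4 (gene Hnf4a), or to TATAAA.
Cyp3a11, chr5:145879855-145880104, minus strand: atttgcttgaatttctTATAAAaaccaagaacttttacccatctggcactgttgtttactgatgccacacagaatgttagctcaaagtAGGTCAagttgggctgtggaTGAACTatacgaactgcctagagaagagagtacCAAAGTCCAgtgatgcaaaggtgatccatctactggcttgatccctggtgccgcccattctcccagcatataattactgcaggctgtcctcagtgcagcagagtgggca
Cyp3a13, chr5:137921620-137921869, minus strand: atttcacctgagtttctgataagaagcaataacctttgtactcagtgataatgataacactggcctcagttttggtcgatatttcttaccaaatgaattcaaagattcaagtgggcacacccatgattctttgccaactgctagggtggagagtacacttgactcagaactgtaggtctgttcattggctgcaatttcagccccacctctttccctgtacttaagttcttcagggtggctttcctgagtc
Cyp3a25, chr5:146009619-146009868, minus strand: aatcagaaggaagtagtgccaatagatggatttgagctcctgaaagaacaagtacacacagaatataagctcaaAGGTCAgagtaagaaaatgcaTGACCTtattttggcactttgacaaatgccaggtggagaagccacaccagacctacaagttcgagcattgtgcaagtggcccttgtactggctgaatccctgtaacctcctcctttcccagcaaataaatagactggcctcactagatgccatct

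The Cyp3a11 stretch held AGGTCA at 162 to 157 bases before the RefSeq start, AGTTCA on the other strand at 142 to 137 bases, CAAAGTCCA at 109 to 101 bases and TATAAA at 234 to 229 bases. The Cyp3a25 stretch held AGGTCA once on each strand, with first bases 176 and 155 bases before the start, and the Cyp3a13 stretch held none of these words. Among the other members, AGGTCA was found in the Abcc2 stretch only, TATAAA in that of Cyp2c66, and GCGTG, the core word of the AHR receptor, only in that of Cyp2b10. The Abcc2 word, at 49 to 44 bases, and the GCGTG at 9 to 5 bases lie inside the genes as placed by the mm10 annotation. Of 27025 gene promoters of the same length, AGGTCA was in 13.8%, AGTTCA in 11.9%, CAAAGTCCA in 0.381%, GCGTG in 28.2% and TATAAA in 12.97%. No word overlapped another in the members. Aligned end to end, the Cyp3a11 stretch was identical to that of Cyp3a13 at 57.2% of columns and to that of Cyp3a25 at 55.6%, and Cyp3a13 to Cyp3a25 at 52.7%. Matches describe letters only, and no binding was measured.

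The libraries held 13805 and 12399 barcodes in mutants and 5974 and 12398 in wild types, with 99772712 to 127796409 UMIs (unique molecular identifiers, 1 per captured RNA molecule). Pairs of libraries shared 26 to 60 cell barcodes. After filters, 1082 and 2407 cells in mutants and 843 and 2089 in wild types were enterocytes, which was 10.4% and 30.0% of epithelial cells in mutants against 19.5% and 27.3% in wild types. Their median depth was 2054.5 and 3603 UMIs in mutants and 3591 and 3139 in wild types. Enterocyte markers summed to 48095 to 62006 CPM (counts per 1000000 UMIs of the enterocytes) in the 4 libraries, and all 24 of them were detected. Goblet cell markers summed to 4132 and 1253 CPM in mutant enterocytes and to 2680 and 1954 CPM in wild type enterocytes, with all 10 detected, and Paneth markers to 6051 and 8501 CPM against 3060 and 5923 CPM, with all 14 detected. Their part in the results was not tested. Mutant enterocytes lay lower on the villus score, with medians of 0.27 and 0.26 against 0.54 and 0.47 in wild types, and set B lay further to the proximal side than set A, with median region scores of -0.30 and 0.47 in mutants and -0.12 and 0.49 in wild types.

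In each of the 4 libraries all 6 genes had their highest level among the named cell types in enterocytes. Cyp3a11, which oxidises many drugs and bile acids, had 55.2 and 76.5 CPM in mutant enterocytes, against 87.9 and 225 CPM in wild type enterocytes. In goblet cells it had 0.718 and 2.73 CPM in mutants and 0.950 and 5.597 CPM in wild types, and in stem cells 1.33 and 1.87 CPM in mutants and 0.505 and 5.10 CPM in wild types. Wild type 2 had the highest value in both of these cell types. Each cell was thinned to 1000 UMIs, which left out no cell. A Cyp3a11 UMI was then found in 0.0945% and 0.400% of mutant goblet cells and in 0.185% and 0.760% of wild type ones. Whether this is background RNA or low expression was not tested. Median depth was 8617 and 12172 UMIs in mutant goblet cells and 21872 and 12569.5 in wild type ones. Cyp3a13 averaged 741 ± 209 CPM, Abcc2 490 ± 198 CPM, Cyp3a25 206 ± 86.4 CPM, Cyp2b10 76.0 ± 55.0 CPM and Cyp2c66 34.4 ± 26.9 CPM over the 4 libraries' enterocytes (SD, n = 4). In stem cells Abcc2 had 44.1 to 65.5 CPM and Cyp3a13 9.08 to 21.2 CPM.

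Enterocytes were split into 5 zones from villus bottom (zone 1) to villus top (zone 5) by a score that held none of the 6 genes. The limits weight the libraries equally, and UMIs were summed per library and zone. A cluster led by the villus tip genes Slc28a2, Nt5e and Ada, described below, was not named as enterocytes. Zone 5 therefore leaves out the cells of that cluster. Cyp3a11, Cyp3a13 and Abcc2 were higher in zone 5 than in zone 1, and Cyp3a25 and Cyp2c66 were lower. The call was an adjusted p under 0.05 in edgeR with the library as a block. The median cell had 2005 to 3525 UMIs in zone 5, against 9807 to 23082.5 in zone 1, and the part of this depth gap in the results was not tested beyond the thinned shares below. Proximal cells, by the region score used below, made up a larger share of zone 1 than of zone 5. They were 109 of 267 and 371 of 581 mutant cells and 33 of 112 and 231 of 373 wild type cells in zone 1. In zone 5 they were 14 of 165 and 126 of 426 mutant cells and 26 of 201 and 172 of 485 wild type cells. The part of this in the zone differences was not tested. The count of 3 of 6 members higher in zone 5 stands beside 35.9% of the 8868 genes tested, and the 2 of 6 lower beside 36.7%.

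Cyp3a11 had the steepest gradient of the members. It had 154 and 225 CPM in mutants and 201 and 365 CPM in wild types in zone 5, against 18.9 and 25.6 CPM in mutants and 5.20 and 92.0 CPM in wild types in zone 1. Zone 5 was the higher zone in 4 of 4 libraries, and the groups of zone values did not overlap. The fold of zone 5 over zone 1 was 8.12 and 8.78 in mutants and 38.6 and 3.97 in wild types. The value of 38.6 in wild type 1 rests on 13 UMIs in zone 1. The fitted log2 difference of zone 5 over zone 1 was 2.92 ± 0.25 (SE, adjusted p = 1.28e-11). Most of the difference lay below the middle of the villus: zone 3 over zone 1 gave 2.42 ± 0.25, while zone 5 over zone 3 gave 0.51 ± 0.24 (adjusted p = 0.130) and was not called. In cells thinned to 1000 UMIs, a Cyp3a11 UMI was found in 14.5% and 16.9% of mutant and 11.4% and 29.5% of wild type cells of zone 5, against 2.25% and 3.098% of mutant and 1.79% and 7.77% of wild type cells of zone 1. Without thinning these shares were 20.6% and 35.7% in mutants and 35.3% and 49.5% in wild types in zone 5, against 9.36% and 18.2% in mutants and 9.82% and 38.1% in wild types in zone 1.

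Cyp3a13, a P450 that is found in intestine more than in liver, had 955 and 1452 CPM in mutants and 862 and 1726 CPM in wild types in zone 5, against 469 and 604 CPM in mutants and 406 and 639 CPM in wild types in zone 1. It went up at each step of the villus in all 4 libraries, and zone 5 over zone 1 gave a log2 difference of 1.20 ± 0.12 (SE, adjusted p = 2.49e-10). It was also higher in zone 5 than in zone 3, by 0.56 ± 0.12, and was the only member called in that direction, beside 13.4% of all genes tested.

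The exporter Abcc2 was highest in zone 3 or zone 4 in every library. It had 425 and 506 CPM in mutants and 533 and 1249 CPM in wild types in zone 5, against 241 and 291 CPM in mutants and 204 and 367 CPM in wild types in zone 1, a log2 difference of 1.19 ± 0.13 (SE, adjusted p = 3.99e-09). Between zone 5 and zone 3 the difference was -0.12 ± 0.13 (adjusted p = 0.570) and was not called.

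Cyp3a25, a close relative of Cyp3a11, peaked in zone 2 or zone 3 and was lower at the top. It had 74.2 and 67.3 CPM in mutants and 115 and 158 CPM in wild types in zone 5, against 138 and 183 CPM in mutants and 126 and 323 CPM in wild types in zone 1. The log2 difference of zone 5 over zone 1 was -0.91 ± 0.14 (SE, adjusted p = 1.31e-06), and that of zone 5 over zone 3 was -1.17 ± 0.15. With all regions pooled, Cyp3a25 was lower in zone 5 than in zone 1 in 4 of 4 libraries. Split by region, this fall was not shared by all regions, as given below.

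Cyp2c66, a P450 of the family that makes oxidised fatty acids, had 2.56 and 7.55 CPM in mutants and 1.17 and 38.3 CPM in wild types in zone 5, against 22.8 and 41.8 CPM in mutants and 16.0 and 74.8 CPM in wild types in zone 1. The set A values of zone 5 rest on 1 UMI in each library. The log2 difference was -1.70 ± 0.28 (SE, adjusted p = 3.12e-06), and -2.73 without wild type 2. Cyp2b10, the textbook CAR target, had 10.2 and 79.6 CPM in mutants and 29.2 and 100 CPM in wild types in zone 5, against 42.1 and 82.9 CPM in mutants and 20.4 and 146 CPM in wild types in zone 1, a log2 difference of -0.34 ± 0.20 (adjusted p = 0.127) that was not called. It was highest in zone 3 in all 4 libraries, and zone 5 was below zone 3 by a log2 difference of -0.68 ± 0.22. With Cyp3a25 and Cyp2c66 (-1.54 ± 0.30) it made 3 of 6 members lower in zone 5 than in zone 3, beside 8.55% of all genes tested. These values pool the regions described below. In middle enterocytes alone Cyp2b10 had 32.8 and 85.9 CPM in mutants and 71.5 and 97.3 CPM in wild types in zone 5. Zone 1 there had 19.1 and 21.0 CPM in mutants and 3.13 and 22.8 CPM in wild types. Zone 3 there had 37.3 and 130 CPM in mutants and 113 and 145 CPM in wild types. Of these, mutant 1 in zone 5 rests on 3 UMIs and wild type 1 in zone 1 on 2.

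**Figure D1:**
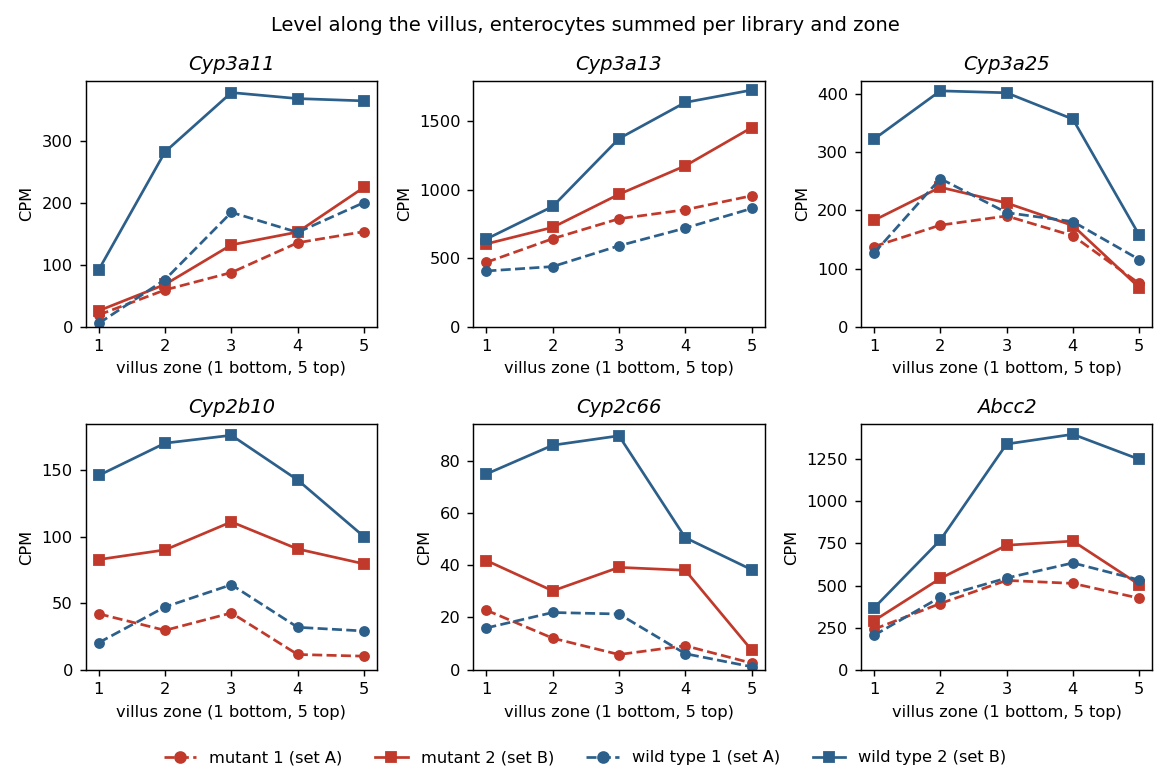
Level of each gene (CPM, vertical axis from 0) along 5 villus zones of enterocytes, from bottom (1) to top (5), with 1 line per library, red for mutants, blue for wild types, dashed for set A and solid for set B. Cyp3a11 and Cyp3a13 are higher at the top in all 4 libraries, Cyp3a25 turns down in zone 5, and wild type 2 is the highest line in each panel.

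Enterocytes were also split into 3 region groups, called distal, middle and proximal, by a score of proximal less distal genes that held none of the members, with limits that weight the libraries equally. All 6 members were higher in proximal than in distal enterocytes at an adjusted p under 0.05 (edgeR, library as a block), beside 14.4% of the 9694 genes tested. None was lower, beside 15.7%. The size of the difference ran from 0.62 for Abcc2 to 4.99 for Cyp2c66 on the log2 scale.

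Cyp2c66 and Cyp2b10 had the largest regional differences. Cyp2c66 had 36.4 and 61.0 CPM in mutants and 37.9 and 119 CPM in wild types in proximal enterocytes, against 0.529 and 2.59 CPM in mutants and 0.394 and 4.50 CPM in wild types in distal ones, where set A gave 1 UMI in each library. The log2 difference was 4.99 ± 0.22 (SE, adjusted p = 5.58e-12). Cyp2b10 had 75.0 and 139 CPM in mutants and 72.4 and 231 CPM in wild types in proximal enterocytes, against 1.06 and 7.77 CPM in mutants and 1.57 and 24.1 CPM in wild types in distal ones, a log2 difference of 4.09 ± 0.25 (adjusted p = 2.46e-10). Middle enterocytes lay between, and both genes were also higher in proximal than in middle ones, by 1.76 ± 0.16 for Cyp2c66 and 1.20 ± 0.21 for Cyp2b10.

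Cyp3a11 had 72.2 and 99.5 CPM in mutants and 114 and 315 CPM in wild types in proximal enterocytes, against 22.8 and 17.6 CPM in mutants and 31.9 and 50.1 CPM in wild types in distal ones, a log2 difference of 2.34 ± 0.16 (SE, adjusted p = 1.02e-09). The step lay between distal and middle, at 2.20 ± 0.16, and proximal over middle gave 0.14 ± 0.14 (adjusted p = 0.528). Cyp3a25 kept a step on each side, with 211 and 266 CPM in mutants and 237 and 495 CPM in wild types in proximal enterocytes, against 96.9 and 55.7 CPM in mutants and 118 and 90.9 CPM in wild types in distal ones. Its log2 difference was 1.82 ± 0.19 (adjusted p = 4.41e-07).

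Cyp3a13 and Abcc2 had the smallest regional differences. Cyp3a13 had 725 and 875 CPM in mutants and 626 and 1180 CPM in wild types in proximal enterocytes, against 462 and 522 CPM in mutants and 423 and 490 CPM in wild types in distal ones (log2 0.91 ± 0.14, SE, adjusted p = 6.54e-05). Abcc2 had 320 and 499 CPM in mutants and 397 and 917 CPM in wild types in proximal enterocytes, against 338 and 322 CPM in mutants and 375 and 315 CPM in wild types in distal ones. It was higher proximally in 3 of 4 libraries, with a log2 difference of 0.62 ± 0.20 (adjusted p = 0.0255). Without wild type 2 the difference was 0.34 (adjusted p = 0.0336), without mutant 2 it was 0.61 (adjusted p = 0.116), and with cells under 15% mitochondrial UMIs it was 0.22 (adjusted p = 0.257), so that the Abcc2 call rests on these choices.

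**Figure D2:**
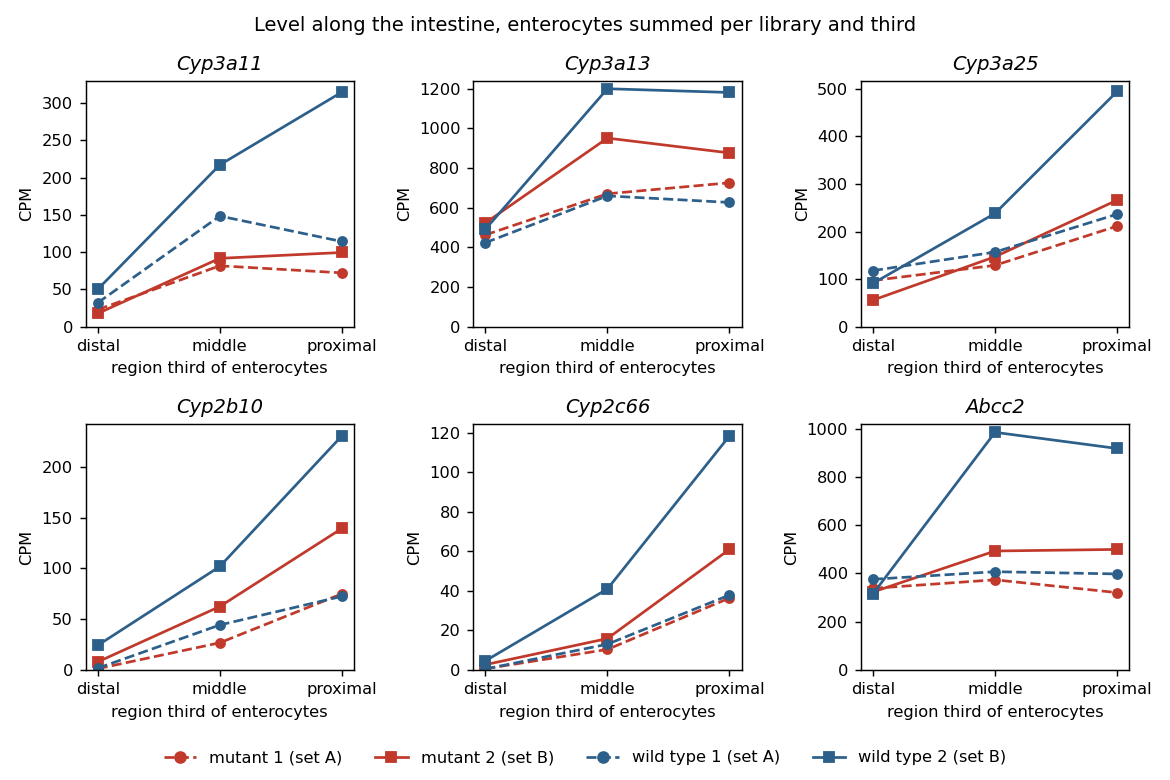
Level of each gene (CPM, vertical axis from 0) in distal, middle and proximal enterocytes, with 1 line per library in the colours of the villus plot. Cyp2c66 lies at or under 4.50 CPM and Cyp2b10 at or under 24.1 CPM in distal enterocytes, while Abcc2 in set A stays between 320 and 407 CPM.

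**Figure D3:**
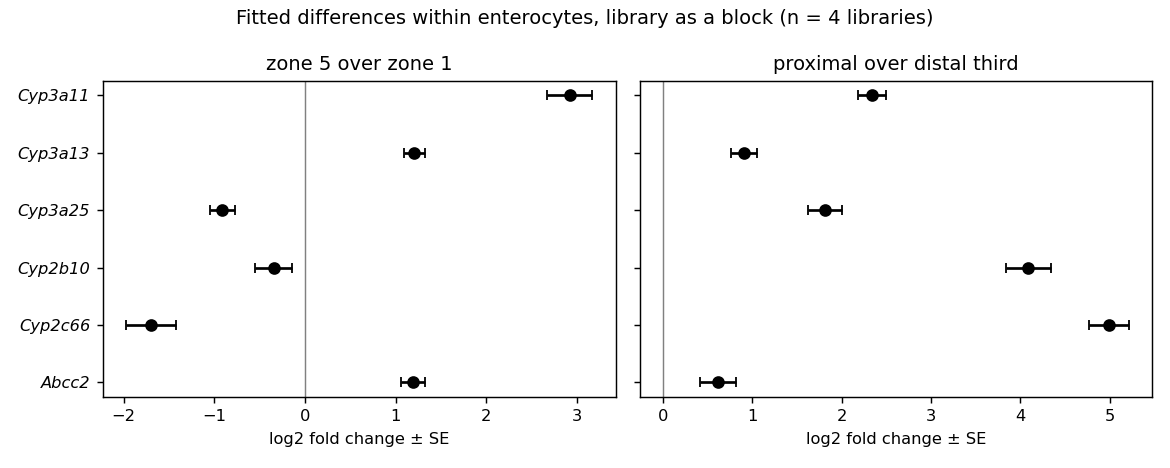
Fitted log2 differences (horizontal axis, dots, with SE as bars) of zone 5 over zone 1 on the left and of proximal over distal enterocytes on the right, for the 6 genes, from 4 libraries. The villus differences run from -1.70 for Cyp2c66 to 2.92 for Cyp3a11, while all 6 regional differences lie above 0.

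Within proximal enterocytes alone, set B gave the same directions along the villus for Cyp3a11, Cyp3a25 and Cyp2c66, while Cyp2b10 went both ways. Cyp2b10 had 156 CPM in mutant 2 and 147 CPM in wild type 2 in zone 5, against 123 and 225 CPM in zone 1. Cyp3a11 had 411 CPM in mutant 2 and 586 CPM in wild type 2 in zone 5, against 32.6 CPM in mutant 2 and 137 CPM in wild type 2 in zone 1. Cyp3a25 had 113 CPM in mutant 2 and 238 CPM in wild type 2 in zone 5, against 248 CPM in mutant 2 and 473 CPM in wild type 2 in zone 1. In set A only 14 cells of mutant 1 and 26 of wild type 1 were proximal cells of zone 5, so those values are not set out. In middle enterocytes Cyp3a25 had 109 and 71.5 CPM in mutants and 143 and 145 CPM in wild types in zone 5. In zone 1 it had 102 and 115 CPM in mutants and 95.3 and 88.2 CPM in wild types there. In distal enterocytes it had 51.3 and 27.6 CPM in mutants and 78.7 and 73.9 CPM in wild types in zone 5. Distal zone 1 had 43.4 and 28.9 CPM in mutants and 77.6 and 57.7 CPM in wild types. In these 2 regions Cyp3a25 was lower in zone 5 than in zone 1 only in mutant 2. Proximal Cyp2c66 had 16.6 CPM in mutant 2 (7 UMIs) and 65.2 CPM in wild type 2 in zone 5, against 62.1 and 116 CPM in zone 1. In middle enterocytes it fell from 10.9 to 4.09 CPM (2 UMIs) in mutant 2. In wild type 2 it rose there from 7.61 CPM (5 UMIs) to 39.7 CPM (20 UMIs). Set A gave 0 Cyp2c66 UMIs in middle cells of zone 5. The pooled fall of Cyp2c66 was thus not shared by all regions.

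Between genotypes, Cyp3a11 was the member whose libraries separated in enterocytes as a whole. Both mutants, at 55.2 and 76.5 CPM in enterocytes, lay below both wild types, at 87.9 and 225 CPM, and the means were 65.8 ± 15.1 CPM in mutants and 157 ± 97.2 CPM in wild types (SD, n = 2 each). The ratio of mutant over wild type was 0.627 (set A) and 0.339 (set B). Cyp3a11 was 1 of 6 members whose groups did not overlap in that direction, beside 14% of the 11564 genes tested, and the rule used this contrast, so nothing is read from the count. In all epithelial cells Cyp3a11 had 3.94 and 15.5 CPM in mutants and 7.42 and 39.1 CPM in wild types. There the groups overlapped, the share of enterocytes also differed between libraries, and the fitted log2 difference of -1.14 turned to 0.64 without wild type 2.

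The other members did not separate by genotype in enterocytes as a whole. Split by zone, both mutants lay below both wild types for Cyp3a25 in zones 2, 4 and 5 and for Abcc2 in zone 5. For Cyp3a11 this held in zones 2 and 3, and the groups overlapped in zones 1, 4 and 5. By region it held for Cyp3a11 in all 3 regions and for Cyp3a25 in middle enterocytes. These splits use the same libraries and are values with no test. The values that follow are of enterocytes as a whole. Cyp3a13 had 609 and 801 CPM in mutant enterocytes and 546 and 1009 CPM in wild type enterocytes, so that mutant 1 was above wild type 1 and mutant 2 below wild type 2. Cyp3a25 had 147 and 185 CPM in mutants and 160 and 334 CPM in wild types. Cyp2b10 had 34.5 and 87.9 CPM in mutants and 32.7 and 149 CPM in wild types. Cyp2c66 had 16.1 and 35.7 CPM in mutants and 13.9 and 72.0 CPM in wild types, and Abcc2 had 340 and 452 CPM in mutants and 390 and 779 CPM in wild types. Cyp3a11, Cyp3a25 and Abcc2 were lower in the mutant of both sets, 3 of 6 beside 27.9% of all genes tested. Higher in the mutant of both sets were 0 of 6, beside 24.2%. The rule used this direction for Cyp3a11, so nothing is read from either count.

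Wild type 2 stood apart for these genes. It was the highest of the 4 libraries for 6 of 6 members, beside 21.9% of all genes tested, and over wild type 1 it was higher by 1.85-fold for Cyp3a13, 2.00-fold for Abcc2, 2.08-fold for Cyp3a25, 2.56-fold for Cyp3a11, 4.55-fold for Cyp2b10 and 5.17-fold for Cyp2c66. The same ratio between the mutants, mutant 2 over mutant 1, ran from 1.26-fold for Cyp3a25 to 2.55-fold for Cyp2b10. Sets, the sex given in titles and Cell Ranger version move together and cannot be told apart. Region score differed between the sets too. Within proximal enterocytes wild type 2 was above wild type 1 for 6 of 6 members, with 315 against 114 CPM for Cyp3a11. Within distal ones it was below wild type 1 for Abcc2, at 315 against 375 CPM, and Cyp3a25, at 90.9 against 118 CPM. The part of region make-up was not tested. Without wild type 2 the fitted log2 difference of mutant over wild type in enterocytes was -0.33 for Cyp3a11, against -1.25 with all libraries, and without wild type 1 it was -1.79. For Cyp3a13, Cyp3a25, Cyp2b10, Cyp2c66 and Abcc2 the sign turned without wild type 2, to 0.44, 0.12, 1.02, 1.02 and 0.09, against -0.14, -0.58, -0.55, -0.71 and -0.56 with all libraries.

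**Figure D4:**
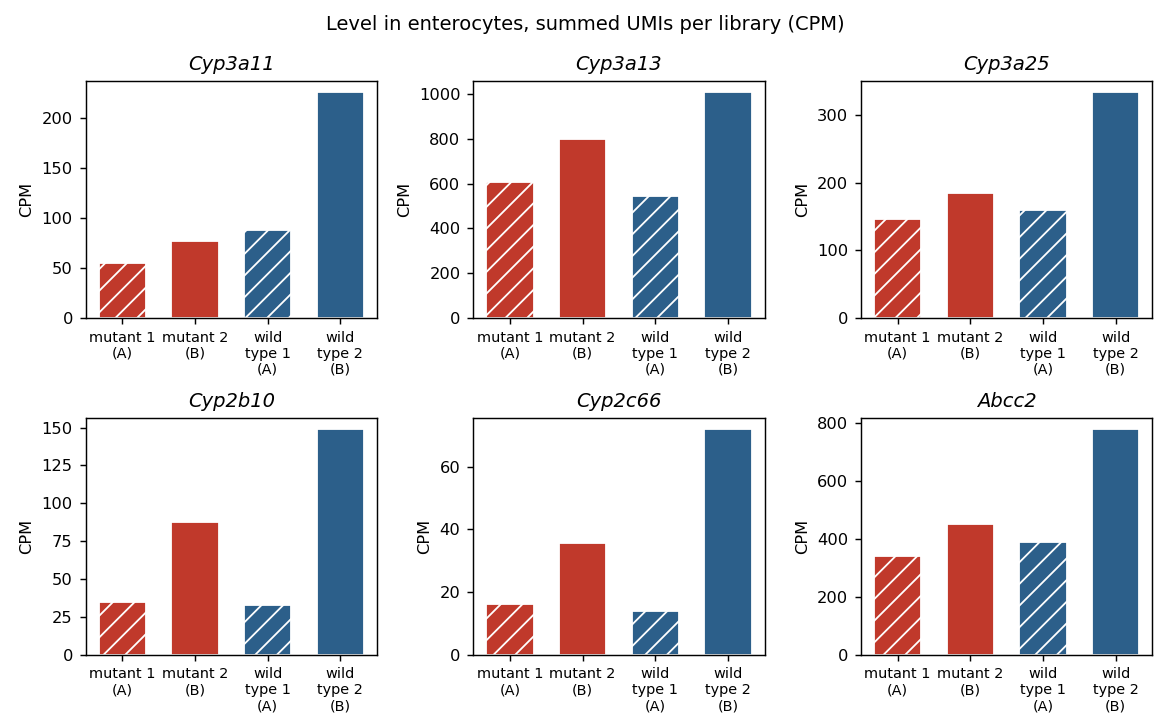
Level of each gene (CPM, bars from 0) in the summed enterocytes of each library, mutants in red on the left and wild types in blue on the right, hatched for set A. For Cyp3a11 both red bars are lower than both blue bars, and wild type 2 is the tallest bar in every panel.

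The same libraries were split by region and zone, which describes where the Cyp3a11 difference lay and is no further support for it. In proximal enterocytes the ratio of mutant over wild type was 0.631 (set A) and 0.316 (set B), in middle ones 0.550 and 0.422, and in distal ones 0.714 and 0.352. Averaged over the regions, the log2 ratio came to -0.67 (set A) and -1.47 (set B), against -0.67 and -1.56 in enterocytes as a whole. By zone, mutant 2 was lower than wild type 2 in 5 of 5 zones, with log2 ratios from -2.05 in zone 2 to -0.70 in zone 5. Mutant 1 was lower than wild type 1 in 4 of 5 zones, and in zone 1 it was higher, with 49 UMIs in mutant 1 and 13 in wild type 1. The median log2 ratio over the zones was -0.36 (set A) and -1.52 (set B). From zone 1 to zone 5 the set A ratios were 1.86, -0.36, -1.08, -0.17 and -0.39. A median gives the zone 1 value little weight, unlike the average taken over regions. Mutant enterocytes also lay lower on the villus score, with medians of 0.27 and 0.26 against 0.54 and 0.47 in wild types. Cyp3a11 rose up the villus, and the part of this in the genotype difference was not tested. Split by zone and region together, mutant 2 was below wild type 2 in 15 of 15 groups of cells, with a median log2 ratio of -1.46. Mutant 1 was below wild type 1 in 8 of 14 such groups, with a median of -0.19 and values from -1.34 to 2.32.

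Thinned to 1000 UMIs per cell, a Cyp3a11 UMI was found in 7.21% of mutant 1 cells (95% Clopper-Pearson interval 5.74 to 8.92) and in 9.76% of mutant 2 cells (8.61 to 11.02). In wild types it was found in 10.6% of wild type 1 cells (8.56 to 12.8) and in 23.4% of wild type 2 cells (21.6 to 25.3). Without thinning the shares were 13.3% and 24.3% in mutants and 25.9% and 47.1% in wild types. The intervals cover counting error only, and the interval of wild type 1 overlaps that of each mutant, while that of wild type 2 lies above the others.

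In the 3 enterocyte clusters both mutants lay below both wild types for Cyp3a11, while over the 6 clusters with absorptive genes mutant 1 was below wild type 1 in 4 and mutant 2 below wild type 2 in 6. In the cluster led by Slc5a12 and Lct, Cyp3a11 had 139 and 180 CPM in mutants and 201 and 383 CPM in wild types. In the cluster led by Slc10a2, the ileal bile acid carrier, and Tmigd1 it had 27.4 and 24.1 CPM in mutants and 51.7 and 55.0 CPM in wild types. Ratios of mutant over wild type there were 0.530 (set A) and 0.439 (set B). In the cluster led by Fabp1 and Leap2 it had 43.0 and 40.5 CPM in mutants and 54.5 and 157 CPM in wild types. A cluster led by Slc28a2, Nt5e and Ada, known villus tip genes, held 98 and 222 mutant cells and 96 and 471 wild type cells, and was given no name because 2 enterocyte markers were among its leading genes. There Cyp3a11 had 248 and 273 CPM in mutants and 272 and 301 CPM in wild types, ratios of 0.912 (set A) and 0.907 (set B), and mutant 2 was above wild type 1. The difference between clusters was not tested. Cyp3a13 had 1166 and 1658 CPM in mutants and 1151 and 1865 CPM in wild types in that cluster, while Cyp3a25 had 21.5 and 26.9 CPM in mutants and 26.4 and 34.9 CPM in wild types. In 2 more clusters with no name Cyp3a11 was low, and mutant 1 was above wild type 1. It had 3.18 and 2.12 CPM in mutants and 1.22 and 8.89 CPM in wild types in the cluster led by Reg1 and Il18. In the cluster led by Gsdmc4 and Gsdmc2 it had 0.347 and 2.39 CPM in mutants and 0.318 and 3.92 CPM in wild types.

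**Figure D5:**
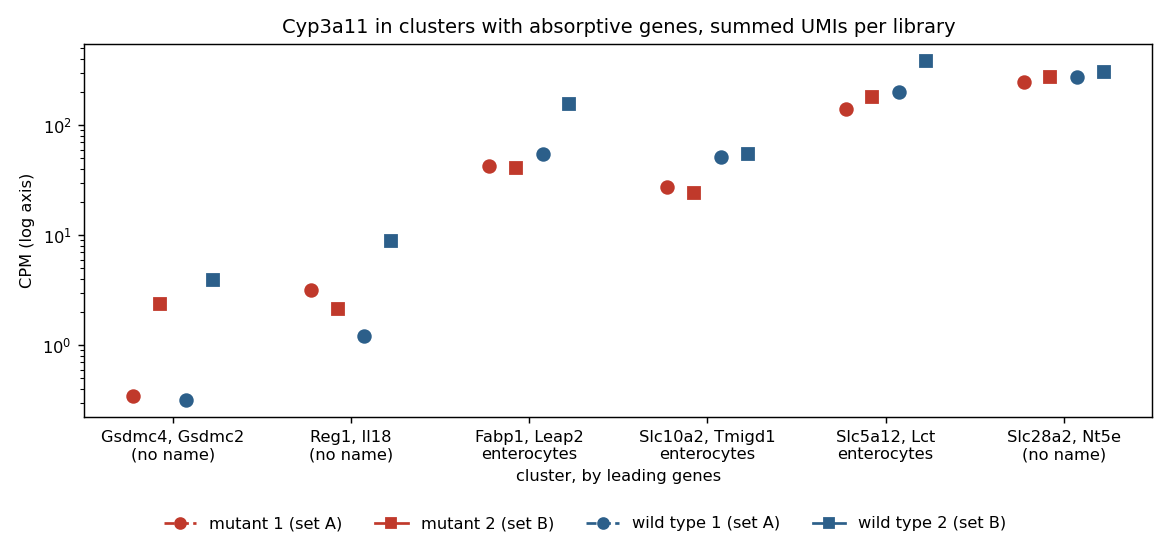
Cyp3a11 (CPM, log axis) in 6 clusters of absorptive cells named by leading genes, with 1 point per library, mutants in red to the left of wild types in blue, circles for set A and squares for set B. The red points lie below both blue points in the 3 enterocyte clusters, and all 4 points lie between 248 and 301 CPM in the cluster led by Slc28a2 and Nt5e.

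Whether the genotype difference changed along the villus or the intestine was tested as an interaction. Between zone 5 and zone 1, 1 of 9411 genes was called (0.0106%), which was Npl, named after its values were seen, and none of the members. The value for Abcc2 was -0.78 ± 0.24 on the log2 scale (SE, adjusted p = 0.968) and that for Cyp3a11 0.32 ± 0.49 (adjusted p = 0.988). Without wild type 2 the Cyp3a11 value was -2.19 (adjusted p = 0.0439), the opposite sign, and in the other 11 alternatives it was not called. Between proximal and distal enterocytes 0 of 10227 genes were called in edgeR (0%), with 446 at an unadjusted p under 0.05, and 0 in DESeq2. The Cyp3a11 value was -0.16 ± 0.34 (adjusted p = 0.934).

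Beyond the members, 197 other genes of the xenobiotic and related lists were followed. Along the villus 37 of the 144 tested (25.7%) were higher and 84 (58.3%) lower in zone 5 than in zone 1, beside 35.9% and 36.7% of all genes tested, against which the list counts below are to be read. Their median log2 difference was -0.80 against -0.03 over all genes tested. Conjugation enzymes, which attach glutathione, sugar or sulfate to a drug, were lower at the top for 25 of 29 tested and higher for 2. Those with the smallest p were Gsta1, a glutathione transferase, at -6.43 ± 0.27, and Gstm3 at -5.35 ± 0.26, Mgst3 at -2.48 ± 0.13 and Mgst1 at -3.44 ± 0.18. Of the other oxidation, reduction and hydrolysis enzymes, 21 of 27 were lower and 4 higher, led by the amine oxidases Maob (-4.25 ± 0.24) and Maoa (-1.85 ± 0.13) and the carbonyl reductase Cbr1 (-2.88 ± 0.17).

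Transporters went the other way, with 10 of 16 higher in zone 5 and 5 lower. Examples were the carnitine carrier Slc22a5 (2.59 ± 0.13), the peptide carrier Slc15a1 (1.92 ± 0.13) and the cation exporter Slc47a1 (3.36 ± 0.23). Of other cytochrome P450 genes and partners 7 of 21 were higher and 10 lower. The reductase Por was higher by 1.80 ± 0.12, while Cyp4f40 (-4.72 ± 0.24), Cyp2c68 (-2.40 ± 0.22) and the electron carrier Cyb5a (-2.59 ± 0.16) were lower. Of 28 receptors and regulators 10 were higher and 8 lower, and Nr1i2 was higher by 0.51 ± 0.12 (adjusted p = 0.000434) and Hnf4a by 0.97 ± 0.10 (adjusted p = 1.03e-09). Nr1i3 was at -0.39 ± 0.21 (adjusted p = 0.0960) and was not called. Of other known targets of PXR or CAR, 3 of 14 were higher and 10 lower, and of 10 haem genes, whose product all P450 enzymes carry, 0 were higher and 8 lower. The lists share genes (Gsta1, Gstm3 and Por are also PXR or CAR targets), and smaller lists gave 1 higher and 1 lower of 3 AHR targets, 4 lower of 4 FXR targets, 2 higher of 2 VDR targets, and 2 higher and 3 lower of 7 PPAR alpha targets.

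By region, 68 of 146 list genes tested (46.6%) were higher in proximal enterocytes, beside 14.4% of all genes, and 22 (15.1%) lower, close to the 15.7% of all genes, with a median log2 difference of 0.37 against -0.01 over all genes tested. The 5 genes that set the region score were left out. Conjugation enzymes were higher for 24 of 33 and lower for 2, led by Ugt2a3 (3.07 ± 0.18), a glucuronosyl transferase, and Gstm3 (3.55 ± 0.23). Other P450 genes and partners were higher for 13 of 21 and lower for 1, among them Cyb5r3 (1.94 ± 0.13), Cyp2c65 (1.82 ± 0.16), Cyp4v3 (1.20 ± 0.12) and Cyp2c68 (1.40 ± 0.14). Other oxidation, reduction and hydrolysis enzymes were higher for 10 of 27 and lower for 5, with the alcohol dehydrogenase Adh1 at 3.16 ± 0.17 and the epoxide hydrolase Ephx2 at 2.22 ± 0.15. Transporters were lower for 6 of 16 and higher for 3, and the lower ones included the drug pumps Abcg2 (-1.16 ± 0.12) and Abcb1a (-1.63 ± 0.21).

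Of 29 receptors and regulators 8 were higher and 5 lower proximally. Nr1i3 was higher by 2.66 ± 0.20 (adjusted p = 5.66e-09), while Nr1i2 was at 0.29 ± 0.15 (adjusted p = 0.147) and was not called. The bile acid receptor gene Nr1h4 was lower, at -2.74 ± 0.13. Other targets of PXR or CAR were higher for 7 of 15 and lower for 2, haem genes higher for 6 of 11 and lower for 0, AHR targets higher for 2 of 4, and PPAR alpha targets higher for 4 and lower for 1 of 6. The 1 FXR target tested, Fgf15, was lower, at -4.25 ± 0.21, and 1 of 2 VDR targets, Atp2b1, was lower, at -1.97 ± 0.14.

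Between mutant and wild type enterocytes, 0 of 169 list genes were called, as were 0 of all 11564 genes (0%) in edgeR, with 167 at an unadjusted p under 0.05, and 0 in DESeq2, while 59 of all genes were called without wild type 1. List genes lower in the mutant of both sets numbered 44 of 169 (26.0%), beside 27.9% of all genes, and wild type 2 was the highest library for 37.9% of them, beside 21.9% of all genes. Higher in the mutant of both sets were 24.2% of all genes. Of 19 transporters tested, 10 were lower and 3 higher in the mutant of both sets. Of 34 conjugation enzymes 4 were lower and 8 higher, and of 4 AHR targets 0 were lower and 3 higher. Of 16 other known targets of PXR or CAR, 7 were lower and 2 higher in the mutant of both sets. The median log2 ratio of mutant over wild type of these targets was 0.04 (set A) and -0.43 (set B). Those with the smallest p were Cyp2c55 (-0.70 ± 0.27), the carboxylesterase Ces2a (-0.48 ± 0.19) and Abcb1a (-0.53 ± 0.22), none of them called. Nr1i2 had 91.7 and 114 CPM in mutants and 107 and 144 CPM in wild types, Nr1i3 had 19.6 and 25.2 CPM in mutants and 17.9 and 30.6 CPM in wild types, and Por had 87.2 and 73.7 CPM in mutants and 104 and 96.5 CPM in wild types. For Por both mutants lay below both wild types, and for the receptors the groups overlapped. Cyp1a1, an AHR target, was at 1.61 ± 0.79, not called.

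Among close relatives, Cyp3a44 and Cyp3a59 had 42 and 31 UMIs in all enterocytes together, against 4666 for Cyp3a11, and Cyp3a16, Cyp3a41a and Cyp3a41b had 0. In the last 500 bases of the transcripts, where 3′ reads fall, 0% of 50-base words of Cyp3a11, Cyp3a13 and Abcc2 occur in another gene of these families. For Cyp3a25 17.3% occur in Cyp3a59, for Cyp2b10 6.59% in Cyp2b13, and for Cyp2c66 21.5% in Cyp2c65, so part of the reads of Cyp2c66 and Cyp2c65 could not be placed on 1 gene. Cyp2c65, also higher in proximal enterocytes, had 2492 UMIs in enterocytes, against 1569 for Cyp2c66.

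The genes most like each member were sought over the 20 sums of 4 libraries by 5 zones, among 7306 genes with a mean of at least 10 CPM. The points share libraries, depth and villus order, so the correlations describe a shared course and no more. For Cyp3a11 they were Hsd17b11 (r = 0.93), Sec16b (0.93), Irf2 (0.92), Pfkfb3 (0.92) and Fchsd2 (0.92). For Cyp3a13 they were Suco, Tlcd2, Dyrk2, Sec24d and Apob (0.91 to 0.92), and for Abcc2 Gpr39, Atl2, Mertk, Frk and Sec24d (0.95 to 0.96). For Cyp2b10 they were Mttp (0.94), which loads lipid onto ApoB, Acsl5 (0.92), Cd36 (0.91), Cdr2 (0.90) and Lpgat1 (0.90). Cyp2c66 was nearest to Slc16a6 (0.94), Prdm16 (0.91), Pde3a (0.91), Lpgat1 (0.90) and Pdss2 (0.88), and Cyp3a25 to Abca1 (0.91), Cadps2 (0.87), Ddi2 (0.87), Myo1d (0.86) and Cndp1 (0.86). Among the members, Cyp3a11 went with Abcc2 (r = 0.88) and Cyp3a13 (0.81), and Cyp2b10 with Cyp2c66 (0.81), while Cyp3a11 and Cyp2c66 gave 0.08.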

How the data were processed

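Single-cell RNA libraries of sorted small intestinal epithelium (2 mutant, 2 wild type) were used as deposited. The deposited values are raw UMI counts per gene and barcode, and per the file headers Cell Ranger was 7.0.0 for set A but 7.1.0 for set B, with build mm10 per the submitters' processing notes. Further counting settings were not stated. The members, lists and tests were chosen with earlier results of these data known.

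Barcodes with at least 500 genes, 1000 UMIs and under 30% mitochondrial UMIs were kept. Scrublet's automatic threshold (scanpy 1.11.5) called 1965 and 619 doublets in mutants but 5 and 0 in wild types, so the top 0.8% of barcodes per 1000 barcodes were removed in each library (1059 and 598 in mutants, 164 and 536 in wild types). The 2000 most variable genes, without members and list genes, gave 50 principal components and Leiden clusters (resolution 1.0, igraph 0.11.9), without centring of libraries, and names came from markers. Centring within libraries gave more clusters from 1 library. Clusters with at least 3 enterocyte markers were taken as enterocytes. Villus zones and regions are quantiles of the scores, each library weighted equally.

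UMIs were summed per library and unit (CPM: per 1000000 of that sum). Tests used edgeR 4.0.16 (R 4.3.3), quasi-likelihood, TMM, filterByExpr and Benjamini-Hochberg adjustment over all genes. All 6 members passed the filter in each fit. DESeq2 1.42.0 and other settings were alternatives. Fits were also run on simulated data with the same dispersion for every gene, which checks the code and not the error rates in these libraries. Named list genes are from the 4 with the smallest p of those called, or the 3 with the smallest p where none was, besides the receptors, Por and relatives; genes of the region score were left out of regional lists. Likeness is Pearson's r of log2(CPM + 1). Gene positions are from GENCODE vM21.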

Additional observations from a re-analysis of the deposited data

Results flagged for a closer look

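For 3 members the sets went opposite ways between genotypes, and with 1 library per genotype and set the difference was not tested. In enterocytes the log2 ratio of mutant over wild type for set A, then set B, was 0.158 and -0.333 for Cyp3a13, 0.0756 and -0.761 for Cyp2b10, and 0.21 and -1.01 for Cyp2c66. In all epithelial cells it was 0.239 and -0.746 for Cyp2c66. With the regions weighted equally, the enterocyte values were 0.12 and -0.22 for Cyp3a13, -0.42 and -1.02 for Cyp2b10 and 0.01 and -1.04 for Cyp2c66, so the Cyp2b10 sets had the same sign there.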

How the results depend on the processing

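Gene counts on the villus held within 1.5 times under the 12 alternatives run, between 5513 and 7122 genes, and the 5 called members kept their call and sign. With the villus tip cluster added, Cyp3a25 was at -1.64 and Cyp2c66 at -2.46, and with 3 zones they were at -0.53 and -1.25. Cyp2b10, not called in the villus contrast, was called lower in zone 5 under 5 of them, with adjusted p between 0.00514 and 0.522 over all 12. The regional count of 2915 genes lay between 1732 (without mutant 2) and 3361 when 1 library was left out; all members but Abcc2 kept their call. The Abcc2 value was 0.22 under 15% mitochondrial UMIs, 0.61 without mutant 2 and 0.47 with limits within each library, none of them called. The genotype count in enterocytes was 26 with no filter on low counts and 0 to 59 when 1 library was left out, 59 without wild type 1. With the set as a replicate block it was 1 in edgeR and 8 in DESeq2. In all epithelial cells it was 0 in edgeR, 10 in DESeq2, 21 with the set as a replicate block and 31 in DESeq2 with that block. The labels do not state that a set is a shared batch, and deviations of same-set libraries from their group means correlated across genes, at 0.45 in enterocytes and 0.71 in all epithelial cells. The count for the interaction with zone was 2 in DESeq2, 9 with no filter, 0 under 15% mitochondrial UMIs, with limits within each library, with 3 zones, with a score without 5 bottom genes and with the villus tip cluster added, and 0 to 4 when 1 library was left out. The count for the interaction with region was 8 with no filter and 0 to 3 when 1 library was left out. The Cyp3a11 interaction with zone was between -2.19 (without wild type 2) and 1.15 (without wild type 1) when 1 library was left out, 0.32 with all libraries and -0.08 in DESeq2, where it was not called; the cause was not tested. The fits with the villus tip cluster and DESeq2 with the block were chosen after seeing the data. Depth limits Cyp2c66 in set A, where zone 5 and distal sums rest on 1 UMI in each library.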
